A study of Mus musculus with 15 samples.

Results

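The members described here are the genes of the transforming growth factor beta (TGF-β) and bone morphogenetic protein (BMP) pathway, chosen by gene name: the ligands *Tgfb1* to *Tgfb3*, the *Bmp*, *Gdf* and inhibin families, their receptors, the Smads, the latent TGF-β binding proteins and a group of secreted antagonists. By name 58 of 53465 genes matched, and the members are the 50 of them whose normalized counts averaged 5 or more over the 15 libraries. The 8 genes below that level were *Gdf1*, listed at 0 in every library, and *Gdf7*, *Nog*, *Gdf2*, *Gdf5*, *Inhbc*, *Bmp8b* and *Bmp10*, the last with a mean of 4.20. The members just above it were *Inhbe* with a mean of 7.53, *Bmp15* with 10.5, *Smad9* with 17.4 and *Gdf9* with 25.2.

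RNA sequencing was performed on sorted cells of B16-F0 tumors (B16-F0 is a murine melanoma line) in hosts that express GFP in all their cells, so that GFP marks host cells and not a cell type. All cells were GFP+, lineage negative and CD34+, and they were divided by surface CD31 and VEGFR2 into endovascular progenitors (EVP, CD31lo VEGFR2lo), transit amplifying cells (TA, CD31int VEGFR2lo) and definitive differentiated cells (D, CD31hi VEGFR2hi), with 5 libraries of each. No source used here says which libraries came from the same animals, so p-values measure the spread between these libraries. The study asked how a hierarchy of endothelial cells changes as it differentiates in a tumor.

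In this pathway a ligand dimer brings together type I and type II receptor kinases, and the type I receptor phosphorylates receptor Smads, which enter the nucleus with Smad4. TGF-β and activin act mainly through Smad2 and Smad3, and BMPs through Smad1, Smad5 and Smad9. In blood vessels the type I receptor encoded by *Acvrl1*, the type II receptor encoded by *Bmpr2* and the co-receptor endoglin (*Eng*) serve BMP signaling in endothelial cells, while secreted antagonists such as follistatin and chordin hold ligands away from receptors.

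These promoters are shown because their genes form the opposed pairs on which the results turn, the activin subunits *Inhba* and *Inhbb* and the ligands *Tgfb2* and *Tgfb1*, or because the gene, *Smad6*, is an inhibitor of the pathway that was higher in D. Each is the 250 bases before the RefSeq transcription start (build GRCm38.p6), printed 5′ to 3′ on the strand of the gene. Capitals mark TATAAA, the TATA box, and GGGCGG, the GC box, on either strand.
*Inhba* (chr13:16011601-16011850, + strand): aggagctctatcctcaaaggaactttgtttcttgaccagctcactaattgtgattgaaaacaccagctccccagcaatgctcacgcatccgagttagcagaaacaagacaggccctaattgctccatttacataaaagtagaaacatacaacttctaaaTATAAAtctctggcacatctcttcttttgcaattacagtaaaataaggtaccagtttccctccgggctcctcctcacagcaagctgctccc
*Inhbb* (chr1:119422249-119422498, - strand): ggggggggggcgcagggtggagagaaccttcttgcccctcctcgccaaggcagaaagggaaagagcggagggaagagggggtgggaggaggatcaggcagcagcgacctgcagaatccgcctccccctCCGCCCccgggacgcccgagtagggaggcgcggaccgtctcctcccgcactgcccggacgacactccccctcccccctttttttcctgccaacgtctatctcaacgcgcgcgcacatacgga
*Tgfb2* (chr1:186705990-186706239, - strand): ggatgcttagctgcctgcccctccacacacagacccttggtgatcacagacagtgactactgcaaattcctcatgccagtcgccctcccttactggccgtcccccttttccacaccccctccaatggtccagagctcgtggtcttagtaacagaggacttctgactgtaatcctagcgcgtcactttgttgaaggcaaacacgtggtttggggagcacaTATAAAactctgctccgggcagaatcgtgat
*Tgfb1* (chr7:25686752-25687001, + strand): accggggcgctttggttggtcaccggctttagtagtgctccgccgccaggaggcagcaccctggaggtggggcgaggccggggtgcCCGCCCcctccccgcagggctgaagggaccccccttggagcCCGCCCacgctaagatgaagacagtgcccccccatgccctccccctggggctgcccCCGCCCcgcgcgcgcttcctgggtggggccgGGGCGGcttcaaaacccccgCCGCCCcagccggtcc
*Smad6* (chr9:64022060-64022309, - strand): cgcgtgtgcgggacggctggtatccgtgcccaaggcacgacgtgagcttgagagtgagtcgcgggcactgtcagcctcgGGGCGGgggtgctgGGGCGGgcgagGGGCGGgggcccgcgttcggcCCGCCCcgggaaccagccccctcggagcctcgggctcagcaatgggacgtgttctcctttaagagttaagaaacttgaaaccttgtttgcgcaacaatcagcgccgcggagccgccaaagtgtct

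The promoters of *Inhba* and *Tgfb2*, higher in EVP, each held 1 TATAAA and no GC box. Those of *Inhbb*, *Tgfb1* and *Smad6*, higher in D, held 1, 5 and 4 GC boxes and no TATAAA. GC content was 43.2% for *Inhba* and 68.0% for *Inhbb*, and 53.6% for *Tgfb2* against 75.2% for *Tgfb1*. The RefSeq table gave a promoter for 35 members, 33 of them with a start within 1000 bases of the annotated gene start. Among these 33, 24 (72.7%) held a GC box, compared with 46.1% of the promoters of tested genes. A GC box was held by 11 of 17 members higher in EVP than in D and by 6 of 6 higher in D. Most promoters of members higher in EVP thus held a GC box, unlike those of *Inhba* and *Tgfb2*. TATAAA was found in 3 of the 17 and 0 of the 6, compared with 9.81%. GTCTAGAC, a palindromic Smad box, was found in 0 of the 33 and in 0.164% of the promoters of tested genes, and CAGACA, a short Smad-binding sequence, was found in 2 of the 33 and in 14.7%. These matches describe letters only.

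Libraries held between 5394356 and 26513073 reads on genes, and replicate 1 was the shallowest of each population. Replicate 1 also gave many of its reads to the predicted gene *Gm10800*, 10.6% in EVP, 8.69% in TA and 8.50% in D, while every other library gave it at most 0.701%. A limit of 3 reads in a library corresponded to between 1.81 and 10.5 normalized counts, and such limits and the read-count intervals given here cover counting error only. The EVP label was checked against 12 pan-endothelial markers, of which *Pecam1* and *Kdr* encode the antigens of the gate. Their summed normalized counts were 2533 to 5785 in EVP, 8793 to 89932 in TA and 125591 to 208504 in D, and 11 of the 12 were higher in D than in EVP, with *Tek* the exception. Low levels of endothelial markers in EVP included genes outside the gate, with *Cdh5*, the endothelial cadherin, at 72.3 ± 67.9 (SD, n = 5) in EVP and 9818 ± 2251 in D. Means are given in this way throughout, as normalized counts ± SD over the 5 libraries of a population. The sum of 10 fibroblast markers ran the other way, at 863257 to 1551220 in EVP, 196598 to 619562 in TA and 1145 to 4261 in D, and 10 of 10 were higher in EVP than in D. No endothelial marker was at or under 3 reads in all libraries of a population, and neither was any fibroblast marker. The fibroblast sum thus moved with the members that were higher in EVP, and the endothelial sum with those higher in D, and the part of either in the results was not tested. In bulk samples fewer cells of a type and less RNA per cell cannot be told apart.

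Between EVP and D, members of the pathway differed in both directions. A total of 32 of the 50 members passed the test, 25 higher in EVP and 7 higher in D, and 26 of the 32 kept their call when any 1 library was left out. The other 6, *Acvr1*, *Acvr1b*, *Acvrl1*, *Bmpr2*, *Smad6* and *Smad9*, are described with the libraries on which they depended. The secreted antagonists *Fst*, *Chrd* and *Grem1*, 3 of 4 latent TGF-β binding proteins, the inhibin and activin subunits *Inha* and *Inhba*, and the receptors *Tgfbr2*, *Bmpr1a*, *Bmpr1b* and *Tgfbr3* were higher in EVP, while *Tgfb1*, *Inhbb*, *Smad1*, *Smad5*, *Smad6*, *Acvrl1* and *Bmpr2* were higher in D. The test was limma on log2(normalized count + 1) over 25549 genes with a Benjamini-Hochberg adjusted p under 0.05, in which 11.6% of all genes tested were called higher in EVP and 7.46% higher in D. The libraries of the 2 populations did not overlap for 30 members, compared with 17.7% of all genes tested. Across the members the median log2 difference, EVP minus D, was 1.21, and over all genes tested it was 0.46, and the members and all genes stood at 0.89 and -0.05 after quantile normalization. The level over all genes rested largely on EVP replicate 1, without which it was 0.0012, with the members at 1.02. Without replicate 1 of every population it was 0.22, with the members at 1.04.

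**Figure D1:**
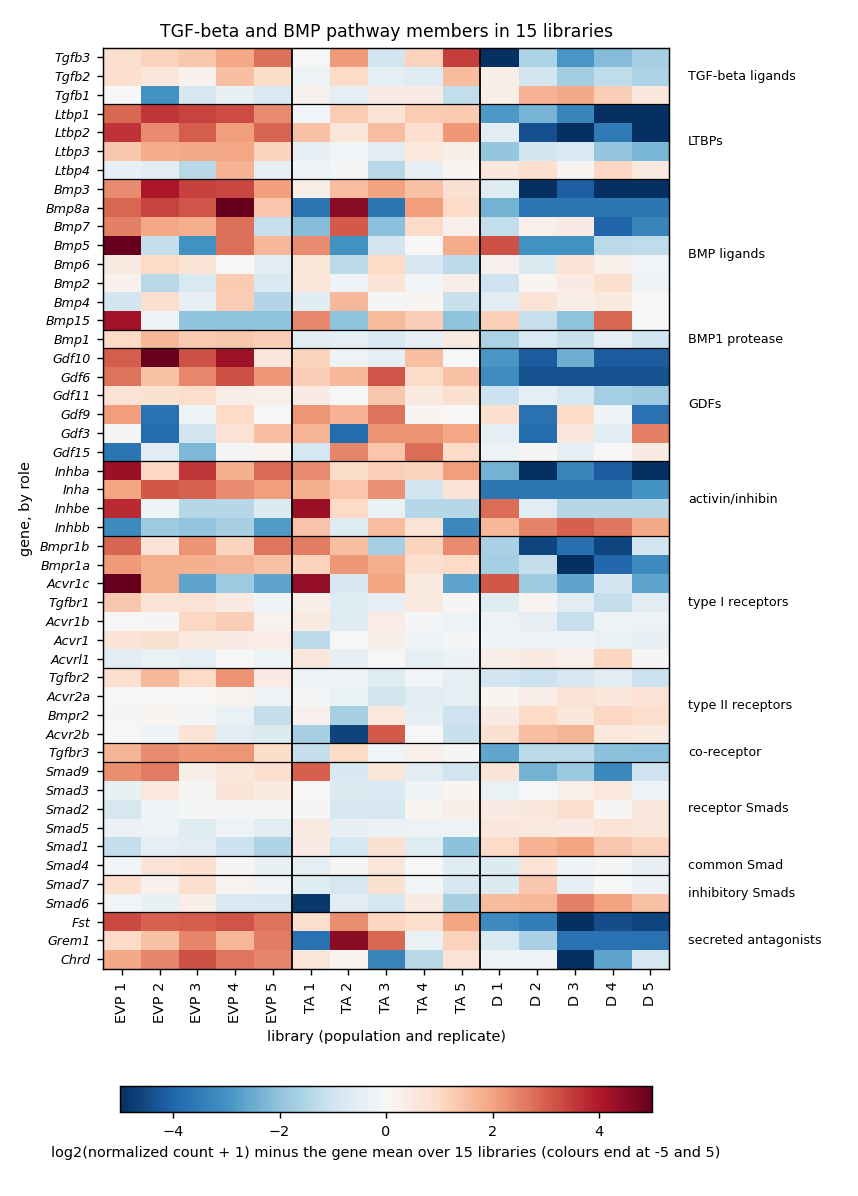
Heat map of log2(normalized count + 1) for 49 members (rows, grouped by role) in 15 libraries (columns), each gene centred on its mean over the libraries. The secreted antagonists and *Ltbp1* to *Ltbp3* are red in all 5 EVP libraries and pale to blue in the D libraries, *Inhbb*, *Smad1* and *Smad6* run the other way, and *Acvr1c* and *Inhbe* are highest in replicate 1.

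Among the TGF-β ligands, which are secreted as latent complexes, *Tgfb3* and *Tgfb2* were higher in EVP and *Tgfb1* was higher in D. *Tgfb3* (ENSMUSG00000021253, chromosome 12, 86056745 to 86079041) had normalized counts of 404, 521, 593, 901 and 1586 in EVP replicates 1 to 5, 229, 1031, 123, 519 and 2545 in TA and 4.12, 77.6, 29.7, 51.1 and 71.9 in D. All EVP and TA libraries lay above all D libraries, and the TA libraries spanned a wider range than those of EVP. The log2 difference of EVP minus D was 4.37 ± 0.79 (SE), limma adjusted p = 0.000487, and that of TA minus D was 3.93 ± 0.79 (SE), limma adjusted p = 0.0026. Between EVP and TA the log2 difference was 0.44 ± 0.79 (SE), limma adjusted p = 0.929, and its sign changed without TA replicate 3, to -0.0779. Of the exon bases of *Tgfb3*, 12.4% lie under predicted genes on the opposite strand, and reads of a protocol that does not mark strand cannot be told apart there. The same holds for 9.34% of the exon bases of *Ltbp2*, 7.84% of *Acvr2a* and 5.74% of *Bmp6*, which other genes share.

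*Tgfb1* normalized counts were 59.7, 6.53, 32.7, 46.4 and 35.3 in EVP, 70.7, 42.2, 79.2, 79.1 and 24.9 in TA and 75.5, 200.01, 227, 140.5 and 88.2 in D. Every D library was above every EVP library, and EVP replicate 2 was the lowest of all. The log2 difference of EVP minus D was -2.14 ± 0.56 (SE), limma adjusted p = 0.00996. Of 30 alternatives 28 made this call, which was lost without replicate 2 or replicate 3 of every population (limma adjusted p = 0.0570 and 0.0557). *Tgfb2* was at 611, 509, 397, 966 and 647 in EVP, 286, 662, 250.01, 223 and 1034 in TA and 427, 178, 102, 143 and 117 in D, with D replicate 1 reaching into the EVP range. Its EVP minus D difference was 1.84 ± 0.45 (SE), limma adjusted p = 0.00626. Per kilobase of exon, *Tgfb3* made up 64.8% ± 10.98 (SD, n = 5) of the 3 ligands in EVP, 63.1% ± 17.6 in TA and 19.3% ± 13.1 in D, while the share of *Tgfb1* was 2.28% ± 1.72 in EVP and 38.6% ± 17.2 in D.

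The latent TGF-β binding proteins are matrix proteins outside the cell, and 3 of the 4 were higher in EVP than in D. *Ltbp1* was at 2862, 4682, 4036, 3704 and 1987 in EVP, 359, 939, 623, 954 and 956 in TA and 52.2, 77.6, 39.9, 9.01 and 4.83 in D. The ranges of the 3 populations did not overlap, and the populations ran from EVP to TA to D. The EVP minus D log2 difference was 7.04 ± 0.58 (SE), limma adjusted p = 1.06e-07, and TA minus D it was 4.84 ± 0.58 (SE), limma adjusted p = 1.92e-05. *Ltbp2* fell on the same sides, at 672 ± 283 in EVP and 14.2 ± 25.9 in D with a log2 difference of 6.93 ± 0.80 (SE), limma adjusted p = 4.5e-06. *Ltbp3* was at 607, 879, 882, 909.5 and 529.7 in EVP, 178, 218, 164, 342 and 290.2 in TA and 61.8, 125, 139.9, 62.4 and 47.7 in D, again with no overlap between any of the 3 populations, and its EVP minus D difference was 3.20 ± 0.33 (SE), limma adjusted p = 1.29e-06. *Ltbp4* was at 1499.7 ± 1546 in EVP, with replicate 4 alone at 4242, and at 1954 ± 450.3 in D, and was not called. Its share of the 4 genes per kilobase was 28.5% ± 17.6 in EVP, 54.6% ± 9.56 in TA and 95.1% ± 2.76 in D.

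**Figure D2:**
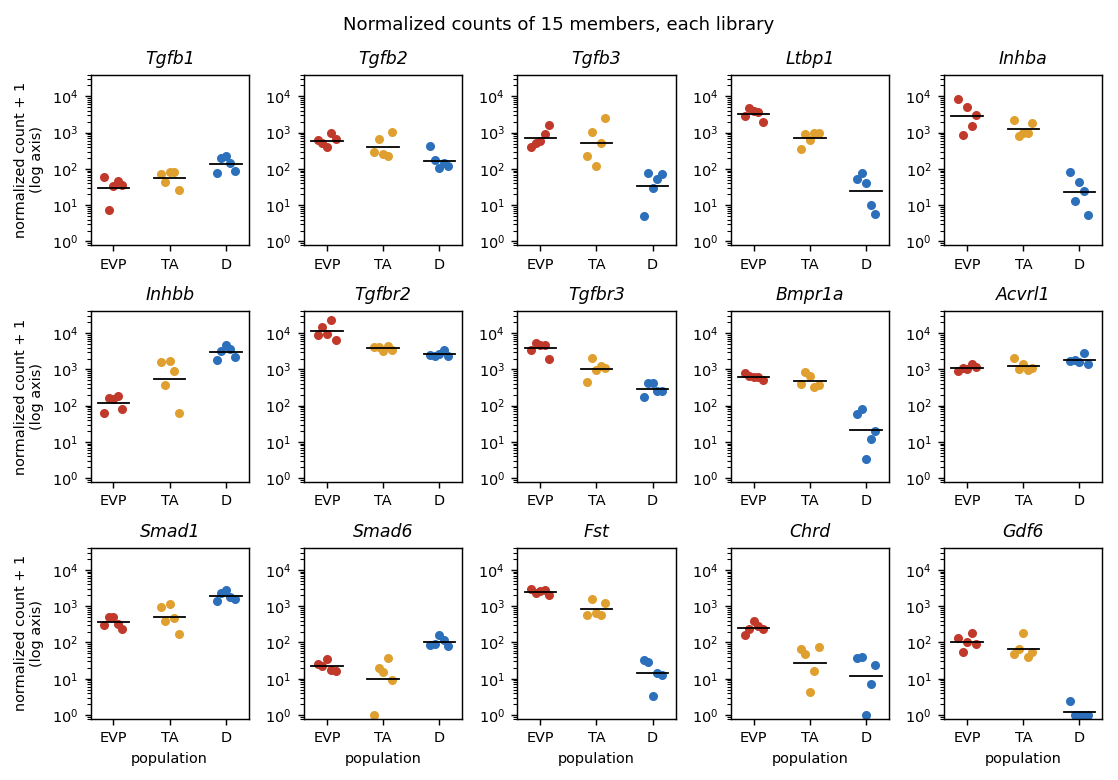
Normalized counts + 1 on a log axis for 15 members, with a point per library (5 per population) and a line at the mean of the log values. *Fst*, *Gdf6*, *Inhba* and *Ltbp1* have all D libraries below all EVP and TA libraries, and *Inhbb* and *Smad6* have all D libraries above them.

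Among the BMP ligands 2 of 8 members were called, both higher in EVP. *Bmp3*, an atypical member of the family that opposes other BMPs in bone, was at 232, 754, 476, 451 and 185 in EVP, 53.4, 129, 183, 122 and 76.0 in TA and 27.5, 0, 1.56, 0 and 0 in D. The lowest EVP library was above the highest TA library, and all TA libraries were above all D libraries. The EVP minus D log2 difference was 7.30 ± 0.79 (SE), limma adjusted p = 2.4e-06. *Bmp8a* was at 87.8, 127, 106, 648 and 31.1 in EVP and 0, 280.4, 0, 50.9 and 23.0 in TA, and D held 1 read in all, in replicate 1. TA replicates 1 and 3 were at 0, so that TA reached from 0 to above 4 of the EVP libraries. The pooled reads, 1108 in EVP and 1 in D, gave a ratio of 1386 (95% interval 248 to 54805). Of the EVP reads 811 came from replicate 4, and the ratio of the population means was 728. The test gave a log2 difference of 6.66 ± 1.32 (SE), limma adjusted p = 0.00114. Fitted differences of genes with so few reads depend on the pseudocount.

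*Bmp2*, *Bmp4*, *Bmp6*, *Bmp7*, *Bmp5* and *Bmp15* were not called in any comparison. *Bmp4* was at 87.2 ± 67.0 in EVP, 94.5 ± 80.9 in TA and 90.3 ± 28.1 in D, and *Bmp2* was at 68.9 ± 57.4, 82.0 ± 22.6 and 73.5 ± 32.1. *Bmp6* was at 112 ± 43.5, 80.8 ± 61.5 and 91.9 ± 31.99. The means of these 3 genes lay closer together than the spread of their libraries. *Bmp7* was at 158, 106, 98.2, 186 and 11.8 in EVP and 10.98, 32.7, 36.7, 0.751 and 1.81 in D, with replicate 5 apart from the other EVP libraries, and had an adjusted p of 0.0576 by limma. *Bmp5* and *Bmp15* were highest in EVP replicate 1, at 270.4 and 73.7, and *Bmp5* shares 46.7% of its exon bases with a predicted gene on the opposite strand. *Bmp1* is not a ligand but the metalloprotease that trims procollagen. It was at 5944, 9299, 7401, 7484 and 6836 in EVP, 2039, 2102, 1750.1, 2237 and 4028 in TA and 995, 1760.1, 1353, 2245 and 1469 in D, and EVP lay above both other populations without overlap. Its log2 difference was 2.28 ± 0.23 (SE), limma adjusted p = 1.2e-06 against D.

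Of 6 growth differentiation factors, *Gdf6*, *Gdf10* and *Gdf11* were higher in EVP than in D, and the same 3 were higher in TA than in D. *Gdf6* (ENSMUSG00000051279, chromosome 4, 9844372 to 9862345), which signals through BMP receptors, was at 133, 54.9, 105, 184 and 90.6 in EVP and 46.5, 63.3, 179.7, 38.4 and 55.4 in TA. In D it had 1 read in replicate 1 and 0 in the other libraries, so the populations did not overlap. The pooled reads were 569 in EVP, 398 in TA and 1 in D. The ratio was 712 (95% interval 127 to 28168) for EVP to D and 450.3 (80.4 to 17831) for TA to D. The log2 differences were 6.48 ± 0.57 (SE), limma adjusted p = 2.15e-07 for EVP minus D, 5.79 ± 0.57 (SE), limma adjusted p = 2.02e-06 for TA minus D and 0.69 ± 0.57 (SE), limma adjusted p = 0.682 for EVP minus TA.

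*Gdf10*, a relative of *Bmp3*, was at 147, 555, 162, 336 and 25.6 in EVP and 37.9, 14.1, 12.3, 49.4 and 16.8 in TA, with 4 reads in D over all libraries. EVP replicate 5, at 25.6, lay within the TA range, while the other EVP libraries lay above it. The pooled reads gave a ratio of 351 (95% interval 137 to 1291) for EVP to D, and the log2 difference was 6.76 ± 0.77 (SE), limma adjusted p = 4.14e-06. *Gdf11*, a close relative of myostatin, was at 191 ± 35.7 in EVP, 198 ± 73.1 in TA and 57.1 ± 21.9 in D, with a log2 difference of 1.78 ± 0.33 (SE), limma adjusted p = 0.00068 for EVP minus D. After quantile normalization *Gdf11* had an adjusted p of 0.0923 by limma, the highest among its 30 alternatives, of which 29 kept the call. The TA minus D calls of *Gdf10* and *Gdf11* were also lost after quantile normalization (limma adjusted p = 0.0698 and 0.0881), and that of *Gdf10* with a pseudocount of 8 (0.0559). *Gdf15*, which is induced by cell stress, was at 7.02, 66.6, 20.5, 95.9 and 107 in EVP, 53.4, 548, 263, 709.9 and 194 in TA and 83.7, 104, 75.0, 99.9 and 135 in D. It was not called, with adjusted p = 0.0531 by limma for EVP against TA. *Gdf3* and *Gdf9*, an oocyte factor, were not called either, and had means of at most 46.9 in each population.

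The activin subunits ran in opposite directions between EVP and D. *Inhba*, the subunit of activin A, was at 8455, 879, 5202, 1482 and 3083 in EVP, 2232, 806, 979.9, 968 and 1822 in TA and 82.4, 12.2, 43.0, 23.3 and 4.23 in D. *Inhbb*, the subunit of activin B, was at 63.2, 165, 147, 181 and 81.6 in EVP, 1562, 367, 1684, 932 and 61.0 in TA and 1834, 3258, 4632, 3657 and 2146 in D. For *Inhba* the D libraries lay below all others, and for *Inhbb* they lay above all others, with TA replicate 5 below the lowest EVP library. The EVP minus D log2 difference was 6.95 ± 0.67 (SE), limma adjusted p = 6.87e-07 for *Inhba*, and -4.63 ± 0.68 (SE), limma adjusted p = 6.35e-05 for *Inhbb*. Per kilobase of exon, *Inhbb* made up 9.29% ± 8.98 (SD, n = 5) of the sum of both subunits in EVP, 45.6% ± 25.5 in TA and 99.1% ± 1.15 in D. The share in single TA libraries was 51.2%, 40.6%, 72.1%, 59.1% and 4.79% for replicates 1 to 5. In the same libraries the summed endothelial markers were 89932, 23199, 49728, 32516 and 8793, and replicate 5 was the lowest by either measure. Whether the cell mixture set the share was not tested.

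*Inha*, the alpha subunit that turns activin into inhibin, was at 49.2, 107, 96.5, 64.7 and 53.2 in EVP and 43.1, 32.5, 61.4, 5.48 and 19.3 in TA, and D held 1 read in all. The pooled reads were 372 in EVP and 1 in D, a ratio of 465 (95% interval 83.0 to 18433), and the log2 difference was 6.03 ± 0.65 (SE), limma adjusted p = 2.32e-06. *Inhbe* reached 35.1 in EVP replicate 1, 51.7 in TA replicate 1 and 17.8 in D replicate 1, was at most 4.39 elsewhere, and was not called. With replicate 1 of every population left out, 31 members were called between EVP and D. Over all genes tested 18.8% were then called, compared with 19.0% with all libraries.

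**Figure D3:**
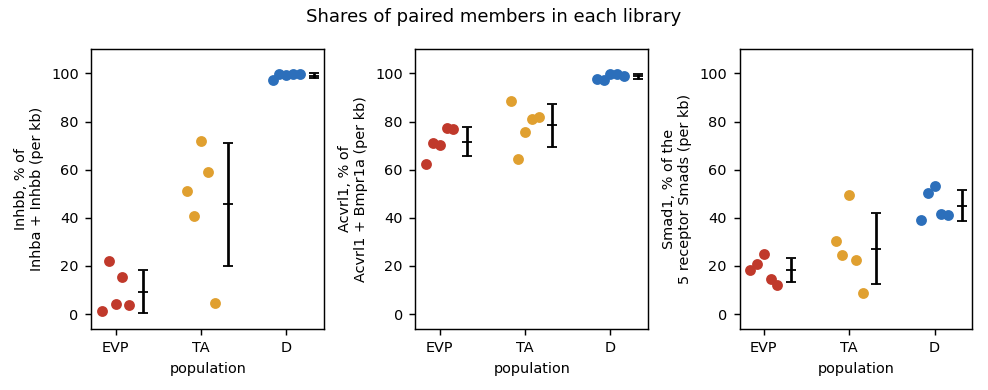
Shares per kilobase of exon in each of 15 libraries (points) with the mean and SD of each population (bars beside the points, n = 5): *Inhbb* in the sum of *Inhba* and *Inhbb*, *Acvrl1* in the sum of *Acvrl1* and *Bmpr1a*, and *Smad1* among the receptor Smads. All 3 shares are higher in every D library than in every EVP library, and the TA libraries spread most for *Inhbb*, from 4.79% to 72.1%.

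Type I receptors were higher in EVP for 5 of 7 members and higher in D for *Acvrl1*. *Bmpr1a*, a BMP receptor, was at 818, 652, 629, 602 and 512 in EVP, 396, 844, 648, 335 and 367 in TA and 56.3, 80.8, 2.34, 11.3 and 19.3 in D. EVP and TA overlapped, and D lay below both. The EVP minus D log2 difference was 4.93 ± 0.63 (SE), limma adjusted p = 1.39e-05. *Bmpr1b*, the other BMP receptor of this type, was at 107 ± 62.5 in EVP, 77.7 ± 54.7 in TA and 3.83 ± 5.16 in D, with a log2 difference of 5.02 ± 0.90 (SE), limma adjusted p = 0.000446. *Tgfbr1*, the TGF-β type I receptor, was at 1101 ± 427 in EVP and 490.3 ± 168 in D, a difference of 1.14 ± 0.30 (SE), limma adjusted p = 0.0118 with overlapping libraries. Its call was lost without replicate 1, 3 or 4 of every population (limma adjusted p = 0.0783, 0.0555 and 0.0551).

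*Acvrl1*, the endothelial receptor for circulating BMPs, was at 916, 1069.9, 1006, 1382 and 1146 in EVP, 2036, 1028, 1367, 975 and 1120.3 in TA and 1731, 1852, 1624, 2889 and 1414 in D. All D libraries exceeded all EVP libraries, but by little, since the lowest D library was at 1414 and the highest EVP library at 1382. The EVP minus D log2 difference was -0.75 ± 0.22 (SE), limma adjusted p = 0.024, and without EVP replicate 1, EVP replicate 3 or D replicate 4 the adjusted p by limma was 0.0601, 0.0542 and 0.0774, within a range of 0.00733 to 0.0837 over 30 alternatives. Per kilobase *Acvrl1* was 38.2% ± 8.41 of the type I receptors in EVP, 50.6% ± 6.74 in TA and 73.8% ± 6.72 in D. Against *Bmpr1a* alone its share was 71.6% ± 6.03 in EVP, 78.4% ± 8.98 in TA and 98.7% ± 1.20 in D, so that it was the more abundant of the pair in each population. *Acvr1* and *Acvr1b*, receptors for BMPs and activins, were higher in EVP with log2 differences of 0.80 and 0.97 and limma adjusted p of 0.0474 and 0.0448. Neither call held under most alternatives, and 12 of 15 fits without 1 library lost *Acvr1* (adjusted p 0.0560 to 0.110 by limma, all but those without TA replicates 1, 2 or 3) and 9 lost *Acvr1b* (0.0523 to 0.137, without EVP replicates 3 and 4, TA replicates 4 and 5 and each D library). Scaling ended both calls too, since after quantile normalization the log2 differences were 0.50 and 0.38 (limma adjusted p = 0.426 and 0.678) and with the same total in all libraries the adjusted p by limma was 0.120 and 0.0831. They were also lost with no minimum mean and by edgeR, and in all 9 of 30 alternatives called *Acvr1* and 13 of 30 called *Acvr1b*. *Acvr1c* was at 678 in EVP replicate 1 and at most 20.9 in the other EVP libraries, and was not called.

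Type II receptors and the co-receptor held some of the most abundant members. *Tgfbr2* (ENSMUSG00000032440, chromosome 9, 116084293 to 116175360), the TGF-β type II receptor, was at 8788, 15025, 9696, 23131 and 6579 in EVP, 4216, 4068, 3211, 4493 and 3511 in TA and 2512, 2346, 2739, 3427 and 2338 in D. EVP lay above both other populations without overlap, while TA and D overlapped. The log2 difference was 2.11 ± 0.26 (SE), limma adjusted p = 8.19e-06 for EVP minus D, 1.56 ± 0.26 (SE), limma adjusted p = 0.00356 for EVP minus TA and 0.55 ± 0.26 (SE), limma adjusted p = 0.202 for TA minus D, the last called only in the fit of these 2 populations alone. *Tgfbr3* (ENSMUSG00000029287, chromosome 5, 107106570 to 107289629), the co-receptor betaglycan, was at 3381, 5354, 4623, 4826 and 1944 in EVP, 455, 2032, 935, 1228 and 1082 in TA and 172, 416, 419.8, 251 and 245 in D. D lay below all others, and EVP and TA overlapped through EVP replicate 5 and TA replicate 2. It was called in all 3 comparisons, at 3.74 ± 0.37 (SE), limma adjusted p = 8.12e-07 for EVP minus D, 1.88 ± 0.37 (SE), limma adjusted p = 0.00892 for EVP minus TA and 1.85 ± 0.37 (SE), limma adjusted p = 0.00242 for TA minus D. Its EVP minus TA call was lost without replicate 1, 3 or 4 of every population (limma adjusted p = 0.0659, 0.0858 and 0.0660). That of *Tgfbr2* was lost without replicate 1 or 3 of every population (limma adjusted p = 0.0562 and 0.0505).

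*Bmpr2*, the BMP type II receptor, ran the other way, at 1303, 1313, 1139.6, 983 and 543 in EVP, 1451, 389, 1780.2, 890.1 and 596 in TA and 1647, 2458, 1840.0, 2554 and 2243 in D. All D libraries were above all EVP libraries, and TA replicate 3 reached the D range. The log2 difference was -1.07 ± 0.35 (SE), limma adjusted p = 0.0411 for EVP minus D and -1.26 ± 0.35 (SE), limma adjusted p = 0.024 for TA minus D. The first call was lost in 8 of 15 fits without 1 library (adjusted p 0.0508 to 0.116 by limma, without EVP replicates 3, 4 and 5, TA replicate 4 and D replicates 2 to 5), and the second in 5 (0.0538 to 0.0636, without TA replicates 2 and 5 and D replicates 2, 4 and 5). The first was also lost after quantile normalization (0.0818 by limma) and with no minimum mean (0.0703), and in all 17 and 22 of 30 alternatives made the calls. *Acvr2a*, an activin receptor, was at 611 ± 63.6 in EVP, 452 ± 89.9 in TA and 874 ± 159 in D and was called between TA and D, with a log2 difference of -0.95 ± 0.19 (SE), limma adjusted p = 0.00274. *Acvr2b* was low, at 23.1 ± 9.91 in EVP and 52.5 ± 22.0 in D, and was not called. Per kilobase *Tgfbr2* was 88.6% ± 3.68 of the type II receptors in EVP, 76.2% ± 7.00 in TA and 53.2% ± 4.75 in D, while *Bmpr2* was 3.81% ± 1.48, 8.99% ± 5.06 and 19.5% ± 2.96.

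**Figure D4:**
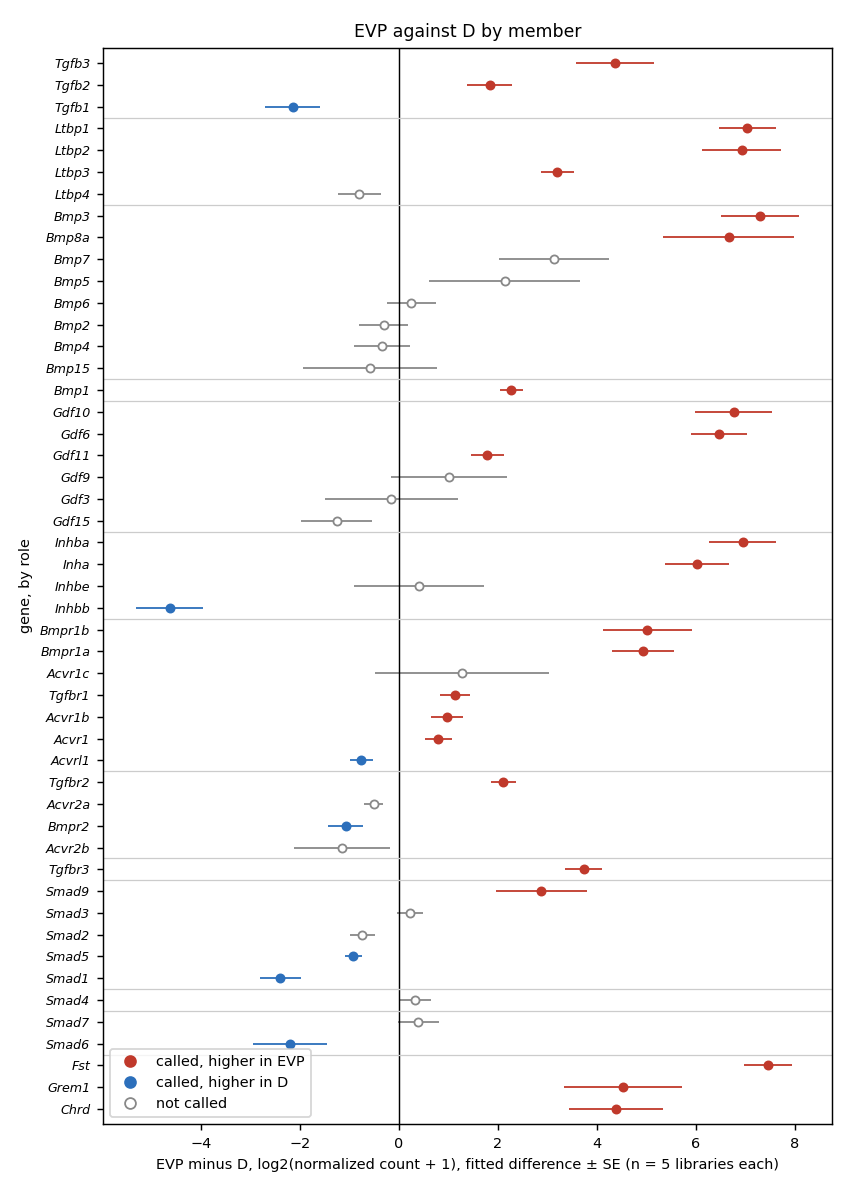
Fitted log2 difference, EVP minus D, with its SE for 49 members by role (n = 5 libraries per population), filled red where called higher in EVP, blue where called higher in D and open where not called. The 24 members drawn as higher in EVP reach 7.46 for *Fst*, and the 7 higher in D reach -4.63 for *Inhbb*.

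Receptor Smads of the BMP branch were higher in D for *Smad1* and *Smad5* and higher in EVP for *Smad9*. *Smad1* was at 305, 491, 489, 328 and 239 in EVP, 926, 381, 1185, 462 and 169 in TA and 1365, 2296, 2716, 1759 and 1539 in D. Each D library exceeded each EVP and TA library, and TA replicate 5 was the lowest of all. The log2 difference was -2.39 ± 0.41 (SE), limma adjusted p = 0.00032 for EVP minus D and -1.89 ± 0.41 (SE), limma adjusted p = 0.00474 for TA minus D. *Smad5* was at 705 ± 74.9 in EVP, 847 ± 227 in TA and 1332 ± 99.6 in D, with -0.92 ± 0.17 (SE), limma adjusted p = 0.000797 for EVP minus D. *Smad9* was at 45.6, 56.2, 10.6, 12.8 and 15.2 in EVP and 13.7, 0.816, 1.56, 0 and 3.63 in D, with overlap. Its difference, 2.88 ± 0.92 (SE), limma adjusted p = 0.0358, was lost in 7 of 15 fits without 1 library (adjusted p 0.0522 to 0.101 by limma, without EVP replicates 1, 2 and 5 and D replicates 2 to 5). It was 1.46 after quantile normalization (adjusted p = 0.384 by limma), was also not called by edgeR (0.164), with a pseudocount of 8 (0.0864) or with no minimum mean (0.0684), and was called in 14 of 29 alternatives.

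The Smads of the TGF-β and activin branch were not called. *Smad2* was at 481 ± 88.2 in EVP and 799 ± 142 in D without overlap of the libraries, and missed the threshold with an adjusted p of 0.0525 by limma. *Smad3* was at 620.5 ± 163 in EVP, 409.7 ± 108 in TA and 526 ± 136 in D, and the shared *Smad4* was at 529 ± 191, 432 ± 148 and 421 ± 169.9. Per kilobase *Smad1* made up 18.1% ± 4.99 of the 5 receptor Smads in EVP, 27.2% ± 14.8 in TA and 45.1% ± 6.31 in D, and *Smad3* 33.9% ± 5.97, 21.8% ± 6.46 and 14.0% ± 2.90. Of the inhibitory Smads, which limit receptor signaling, *Smad6* was at 24.6, 20.9, 35.2, 15.98 and 15.2 in EVP, 0, 18.5, 14.5, 36.8 and 8.10 in TA and 83.7, 89.8, 164, 115 and 76.8 in D. Every D library was above every other library. The log2 difference was -3.35 ± 0.75 (SE), limma adjusted p = 0.00576 for TA minus D and -2.20 ± 0.75 (SE), limma adjusted p = 0.0493 for EVP minus D, and 12 of 15 fits without 1 library lost the latter (adjusted p 0.0502 to 0.116 by limma, all but those without TA replicates 1, 2 or 4). The EVP minus D call was also lost with a pseudocount of 0.5 (0.0897 by limma), with no minimum mean (0.0787) and by edgeR (0.0692), and was made in 11 of 30 alternatives. *Smad7* was at 189 ± 57.1 in EVP, 123 ± 68.8 in TA and 159 ± 112 in D and was not called.

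Of the secreted antagonists, *Fst*, *Chrd* and *Grem1* were higher in EVP than in D. Follistatin (*Fst*), which binds activins, was at 3041, 2387, 2548, 2749 and 2062 in EVP, 560.2, 1545, 648, 570.4 and 1216 in TA and 32.9, 27.8, 2.34, 13.5 and 12.1 in D. Its populations did not overlap and ran from EVP to TA to D. The log2 difference was 7.46 ± 0.49 (SE), limma adjusted p = 7e-09 for EVP minus D and 5.85 ± 0.49 (SE), limma adjusted p = 3.56e-07 for TA minus D.

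Chordin (*Chrd*), a BMP antagonist, was at 162, 236, 399, 279 and 241 in EVP, 65.5, 46.6, 3.35, 15.7 and 72.2 in TA and 37.1, 38.4, 0, 6.01 and 23.6 in D. The EVP libraries were above all others, and TA and D overlapped. The log2 difference was 4.39 ± 0.94 (SE), limma adjusted p = 0.00233 for EVP minus D. *Grem1* was at 24.6, 35.3, 71.2, 40.8 and 78.8 in EVP, 0, 299.8, 97.1, 9.40 and 28.02 in TA and 6.86, 3.27, 0, 0 and 0 in D, with TA spanning both other populations. Its EVP minus D difference of 4.53 ± 1.19 (SE), limma adjusted p = 0.0107 was lost in 5 of 30 alternatives, among them quantile normalization (adjusted p = 0.116 by limma) and edgeR on whole reads (0.0548), within a range of 7.6e-04 to 0.116 over 30 alternatives.

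Between EVP and TA, 5 of the 50 members were called, all higher in EVP: *Bmp1*, *Tgfbr2*, *Tgfbr3*, *Ltbp3* and *Ltbp1*. The background over all genes tested was 1.56% called higher in EVP against 1.94% called higher in TA. The libraries of EVP and TA did not overlap for 9 members, all higher in EVP, compared with 4.29% of all genes tested in either direction. The median log2 difference of the members was 0.67, beside 0.09 over all genes tested. Without EVP replicate 1 these were 0.59 and -0.16, and without EVP replicate 5 they were 0.67 and 0.20. *Bmp1* differed by 1.65 ± 0.23 (SE), limma adjusted p = 0.00168, *Ltbp3* by 1.69 ± 0.33 (SE), limma adjusted p = 0.00873 and *Ltbp1* by 2.20 ± 0.58 (SE), limma adjusted p = 0.0427. The call of *Ltbp1* was lost in 8 of 15 fits without 1 library (adjusted p 0.0521 to 0.121 by limma, without EVP replicates 1 to 4 and TA replicates 1 to 4) with the same total in all libraries (0.0645), with a pseudocount of 0.5 (0.0502) and with no minimum mean (0.0713), and was made in 15 of 30 alternatives. Scaling all libraries to the same total gave 4 members higher in EVP and 1 higher in TA. Over the 25549 genes tested it gave 237 and 714, compared with 398 and 495 without that scaling. Without replicate 1 of every population, or without replicate 3, 1 member was called, and over all genes tested 0.407% and 0.352% were called in these fits, compared with 3.50% with all libraries.

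Between TA and D, 21 members were called, 15 higher in TA and 6 higher in D, while 8.21% of all genes tested were called higher in TA and 4.31% higher in D. Libraries did not overlap for 19 members, compared with 9.25% of all genes tested. The median log2 difference, TA minus D, was 1.17 for the members and 0.24 over all genes tested, and 0.57 and -0.10 after quantile normalization. Those higher in TA included *Bmp3*, *Tgfb3*, *Inha*, *Inhba*, *Tgfbr3*, *Gdf6*, *Gdf10*, *Gdf11*, *Ltbp1*, *Ltbp2*, *Ltbp3*, *Fst*, *Bmpr1a* and *Bmpr1b*, and the 6 higher in D were *Inhbb*, *Smad1*, *Smad5*, *Smad6*, *Acvr2a* and *Bmpr2*. *Inhba* differed by 5.78 ± 0.67 (SE), limma adjusted p = 1.47e-05. *Inhbb* differed by -2.38 ± 0.68 (SE), limma adjusted p = 0.0269, a call lost in 4 of 15 fits without 1 library (adjusted p 0.0590 to 0.0702 by limma, without TA replicate 2 and D replicates 2, 3 and 4). That call was also lost after quantile normalization (0.120 by limma), in the fit of only these populations (0.0634) and by edgeR (0.0670), and was made in 21 of 30 alternatives. *Ltbp3* and *Smad5* were not called between TA and D after quantile normalization (limma adjusted p = 0.0767 and 0.0508). This comparison shares its TA libraries with the comparison of EVP and TA, and its D libraries with that of EVP and D.

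The position of TA between EVP and D was described on the log2 scale, with 0 for the EVP mean and 1 for the D mean. Over the 32 members called between EVP and D the median position was 0.26, and 29 lay between 0 and 1. The median over the 4859 genes called between EVP and D was 0.36, and 4213 of these genes lay between 0 and 1. On the scale of normalized counts the median of the members was 0.55. The 25 members higher in EVP had a median of 0.31, with *Gdf11*, *Bmpr1a* and *Tgfb3* nearest to EVP at -0.0042, 0.08 and 0.10 and *Acvr1*, *Tgfbr2* and *Bmp1* nearest to D at 0.99, 0.74 and 0.73. The 7 higher in D had a median of 0.26, from -0.52 for *Smad6*, which was lowest in TA, to 0.48 for *Inhbb*. In single TA libraries the median of these 7 was 0.57, 0.0025, 0.65, 0.16 and -0.20 for replicates 1 to 5, and that of the 25 was 0.31, 0.26, 0.32, 0.28 and 0.30. These medians rest on 7 and 25 genes with differences of their own size, and their spread over the TA libraries was not compared.

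**Figure D5:**
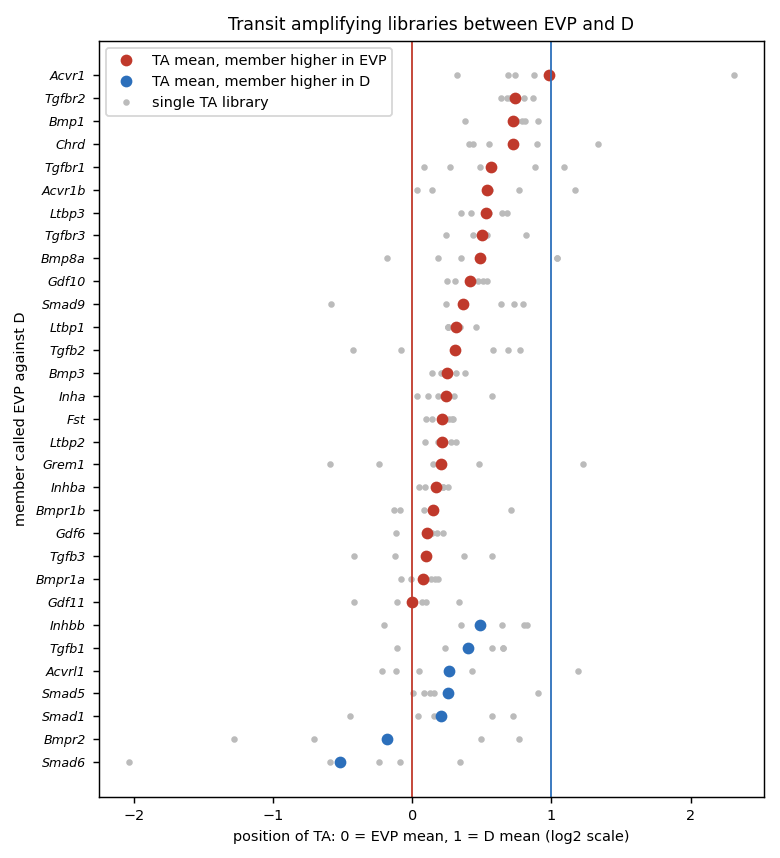
Position of TA between the EVP mean (0) and the D mean (1) on the log2 scale for 31 members called between EVP and D, with large points for the mean of 5 TA libraries and small grey points for single libraries. Most means lie nearer to EVP than to D, and *Smad6* lies on the far side of EVP at -0.52.

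Pathway genes outside the name rule were read from a list of 48, of which 44 were tested and *Amh*, *Lefty2*, *Mstn* and *Sost* were below the minimum mean. Between EVP and D, 14 were higher in EVP and 10 higher in D. Of 8 co-receptors and surface regulators 4 were higher in D and 1, *Rgma*, in EVP. Endoglin (*Eng*), the endothelial co-receptor of *Acvrl1*, was at 1519 ± 572 in EVP, 5653 ± 3697 in TA and 21840 ± 6888 in D. Its EVP minus D log2 difference was -3.88 ± 0.33 (SE), limma adjusted p = 1.88e-07. Of 12 other antagonists tested 7 were higher in EVP and 1, *Crim1*, in D. *Nbl1*, a BMP antagonist, was at 3926 ± 1442 in EVP and 51.2 ± 38.9 in D, a difference of 6.40 ± 0.38 (SE), limma adjusted p = 2.67e-09.

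Among 8 genes known as targets of BMP signaling 2 were higher in EVP and 3 higher in D. The median log2 difference of the 8, EVP minus D, was 0.91. *Tmem100* had a higher mean in EVP, at 3188 ± 1511 against 68.1 ± 112 in D. So had *Id2*, at 2508 ± 1167 against 856 ± 101. *Id1*, an inhibitor of DNA binding, was at 176 ± 49.8 in EVP, 1411 ± 915 in TA and 4698 ± 1332 in D, with -4.73 ± 0.46 (SE), limma adjusted p = 7.72e-07 for EVP minus D. *Id3* was higher in D by less, at 6328 ± 2301 in EVP and 10226 ± 1545 in D with -0.75 ± 0.19 (SE), limma adjusted p = 0.0104. Among 7 genes known as TGF-β targets 3 were higher in EVP and the other 4 were not called. The matrix gene *Postn*, also a marker of fibroblasts, was at 43159 ± 15963 in EVP and 217 ± 36.9 in D with 7.57 ± 0.38 (SE), limma adjusted p = 3.22e-10. Of 7 intracellular regulators 1, *Pmepa1*, was higher in EVP and 1, *Tgif1*, in D, and of 2 other ligands tested *Nodal* was higher in D.

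Between EVP and TA 7 of the 44 were higher in EVP and 7 in TA. *Fstl1*, a follistatin-like glycoprotein, differed by 1.70 ± 0.28 (SE), limma adjusted p = 0.00402, and *Pmepa1* by 0.99 ± 0.19 (SE), limma adjusted p = 0.00892. *Id1* and *Eng* were higher in TA, with -2.67 ± 0.46 (SE), limma adjusted p = 0.00477 and -1.79 ± 0.33 (SE), limma adjusted p = 0.00693. *Id3* was not called, with 0.23 ± 0.19 (SE), limma adjusted p = 0.706. Between TA and D 14 were higher in TA and 9 in D. *Postn* and *Nbl1* were higher in TA, by 6.29 ± 0.38 (SE), limma adjusted p = 1.22e-08 and 4.60 ± 0.38 (SE), limma adjusted p = 3.51e-07. *Eng* and *Bambi*, a decoy receptor, were higher in D, by -2.09 ± 0.33 (SE), limma adjusted p = 0.000392 and -1.90 ± 0.36 (SE), limma adjusted p = 0.00165, as were *Id1* at -2.06 ± 0.46 (SE), limma adjusted p = 0.00586 and *Id3* at -0.97 ± 0.19 (SE), limma adjusted p = 0.0026.

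Markers of other cell types were also measured. Summed mural markers were 7277 to 33899 in EVP, 6139 to 155024 in TA and 5165 to 10852 in D, and between EVP and D 3 of 8 were higher in EVP and 2 in D. The 5 melanoma markers summed to 29081 to 66775 in EVP, 68613 to 174772 in TA and 18013 to 47596 in D, and 5 of 5 were higher in TA than in D. Leukocyte markers, with 7 of 8 tested, summed to 2003 to 9370 in EVP, 5709 to 33947 in TA and 2900 to 9038 in D. Keratinocyte markers summed to 917 to 5138 in EVP, 747 to 61123 in TA and 51.1 to 1554 in D. Lymphatic markers summed to 8341 to 18769 in EVP, 4402 to 6275 in TA and 2889 to 5646 in D. Of these 4 genes 1, *Pdpn*, was higher in EVP than in D, and 2 were higher in D. *Pdpn*, at 13904 ± 3759 in EVP and 164 ± 73.1 in D, made up most of the EVP sum. *Flt4* was at 39.1 ± 33.3 in EVP and 3506 ± 809 in D. The part of all these cell type markers in the levels of the members was not tested.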

How the data were processed

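Per the labels and the methods of the study, RNA of sorted cells was amplified by a modified Smart-Seq2 protocol and made into Nextera XT libraries, which mark no strand and carry no molecular identifiers. The submitters' processing notes name bcl2fastq 2.17, STAR 2.5.3a, mm10, Ensembl release 91 and DESeq2 1.10.1. The deposited signal is the gene count of each library divided by a DESeq2 size factor, called a normalized count here. All values came out as whole reads (100% within 0.01), and the lowest, median and highest libraries held 5394356, 19049194 and 26513073 reads on genes. The authors' tables of their own comparisons, which hold fold changes and p-values, were not used.

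Genes averaging 5 normalized counts or more were fitted with limma 3.58.1 (R 4.3.3) on log2(normalized count + 1), with all 15 libraries, a trend in the spread, and Benjamini-Hochberg adjustment over 25549 genes. edgeR 4.0.16 and DESeq2 1.42.0 on the whole reads, other pseudocounts (0.5 and 8), minimum means and scalings, fits without single libraries and a fit with the replicate number as a block were the alternatives. The script was tested on simulated data. Shares within a role used normalized counts per kilobase of exon and were not tested. Intervals of read ratios are exact at the 95% level. Members are named, with tests for up to 4 called members of a role by adjusted p, for *Tgfb3*, *Tgfbr2*, *Tgfbr3* and *Gdf6* always, and for members singled out after their values were seen (*Acvr1*, *Acvr1b*, *Smad9*, *Bmpr2*). Among other pathway genes the 2 with the smallest adjusted p in each direction and *Eng*, *Id1* and *Id3* are named, and *Rgma*, *Crim1*, *Tgif1*, *Pmepa1* and *Nodal* as the lone genes of a count. *Tmem100* and *Id2* were added after their values were seen. The values of 1 member and of 1 other pathway gene are not reported here, although the counts include them. The members and all lists were chosen with earlier results of these data known.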

Additional observations from a re-analysis of the deposited data

Results flagged for a closer look

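In 14 of 147 combinations of member and population a single library lay far from the other 4 by Dixon's test on log2(normalized count + 1). The test flags about 5% of groups of continuous values by chance. A single read beside 4 libraries at 0 is always flagged, as for *Bmp8a*, *Gdf6* and *Inha* in D, so the 14 cannot be set against that rate. Of the 14, 7 were high in replicate 1, the shallowest library of each population.

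In D replicate 1, *Bmp3* was at 27.5 (others 0 to 1.56), *Bmp5* at 74.1 (0 to 2.42) and *Inhbe* at 17.8 (0 to 0.816), and *Bmp8a* and *Gdf6* were each at 1.37, a single read, where the other D libraries had 0. In EVP replicate 1, *Inhbe* was at 35.1 (0 to 1.31) and *Smad2* was low at 327 (491 to 539). In TA replicate 1, *Smad5* was high at 1249.6 (703 to 776) and *Acvr1* low at 89.6 (201 to 273).

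Other libraries were apart for 5 members. *Acvr1b* was low in D replicate 3 at 79.7 (135 to 151), *Bmp7* in EVP replicate 5 at 11.8 (98.2 to 186), *Gdf3* in TA replicate 2 at 0 (46.5 to 67.4) and *Tgfb1* in EVP replicate 2 at 6.53 (32.7 to 59.7). *Inha* was at 0.604, a single read, in D replicate 5.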

How the results depend on the processing

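The number of members called between EVP and D was 32, and ranged from 26 after quantile normalization to 35 by DESeq2, and from 24 to 34 in fits without libraries. Between TA and D it was 21, and ranged from 17 to 25 in all alternatives. Between EVP and TA it was 5, and was 9 with a pseudocount of 8, 8 in a fit of only these 2 populations, 11 by DESeq2, 6 by edgeR and 1 to 7 in fits without libraries, with 1 without replicate 1 or replicate 3 of every population and 3 without replicate 4. Calls over all genes moved too. Between EVP and TA they moved from 3.50% to 4.56% with a pseudocount of 8, 2.58% in the fit of 2 populations and 7.44% by DESeq2. Without replicates 1, 3 and 4 of every population they were 0.407%, 0.352% and 1.05%. Between EVP and D they moved from 19.0% to 15.3% after quantile normalization and 21.7% by DESeq2. With no minimum mean they were 9.05%, and with a minimum mean of 20 they were 28.7%. In fits without libraries they were 13.5% to 20.2%. Between TA and D they were 12.5%, and ranged from 5.55% with no minimum mean to 20.7% with a minimum mean of 20. The *Tgfb3* difference of EVP minus TA, 0.44, was -0.0779 without TA replicate 3, -0.0139 without replicate 3 of every population, 1.01 without TA replicate 5, -0.19 by edgeR and -0.15 by DESeq2, and was called in none of these. The median position of TA was 0.55 on the scale of normalized counts, and 0.229 to 0.323 in fits without single libraries. The causes were not tested.

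With the replicate number as a block, 9 members were called between EVP and TA, 7 higher in EVP and 2 higher in TA, beside 31 between EVP and D and 21 between TA and D. Over all genes 4.94%, 22.3% and 15.8% were then called, compared with 3.50%, 19.0% and 12.5%. The EVP minus D calls of *Acvr1* (adjusted p = 0.0530 by limma) and *Acvr1b* (0.0523) were not made with the block. Same-numbered libraries deviated together with r over 0.1 in 11 of 15 pairs (range -0.14 to 0.69), and a library correlated best with its own number in 23 of 30 cases, a hint from the data that numbers share something. No label says what a number marks and not every pair passed 0.1, so the fit without the block was kept. Of 915 results without a single library 846 kept direction and call, 68 lost the call and 1 changed sign. Without the same replicate number in every population 255 of 305 kept both, 49 lost the call and 1 changed sign. In other settings 573 of 609 kept both. Depth limits genes at or under 3 reads in a library, among them *Bmp8a*, *Gdf6*, *Gdf10* and *Inha* in D.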
